A study of Homo sapiens with 6 samples.

Results

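The 10 genes described here encode glycoproteins of the extracellular matrix: fibronectin (FN1), the fibrillins (FBN1 and FBN2), a fibulin (FBLN1), the matricellular proteins tenascin-C, SPARC, thrombospondin-1, thrombospondin-2 and periostin (TNC, SPARC, THBS1, THBS2 and POSTN), and the proteoglycan versican (VCAN). They were chosen by gene symbol from the 17039 genes of the expression table, and all 10 were found. Poly(A) RNA of MDA-MB-231 cells, a human triple-negative breast cancer line, was sequenced next to that of 231-BR cells, a variant of the same line that was selected to spread to the brain, with 3 libraries of each, and MDA-MB-231 is called the parental line below. Both lines were grown as cultures in DMEM with fetal bovine serum at 10% and penicillin-streptomycin at 1%, and G418 was added at 200 µg/mL for 231-BR cells only, so that line and drug cannot be told apart. The 231-BR cells were a gift from another laboratory and the MDA-MB-231 cells came from ATCC, so line and source cannot be told apart either. Expression is given as FPKM, the fragments mapped to a gene divided by its transcript length and by the library size, which allows genes of different length to be compared within a library. No counts were used, so the depth of the libraries is unknown. The study asked which genes differ between the brain metastatic line and its parent.

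Fibronectin is secreted as a dimer, is bound by integrins at the cell surface and is pulled into fibrils, on which other matrix proteins are then laid down. Fibrillins polymerise into microfibrils, which carry elastin and store latent TGF-β. Matricellular proteins take little part in the mechanical build of the matrix and instead alter adhesion, matrix turnover and growth factor signalling. In breast tumours these proteins come from fibroblasts as well as from cancer cells, and fibronectin, tenascin-C and periostin are known as components of metastatic niches. Here only cultured tumour cells were sequenced.

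FN1 is the member for which the study designed oligonucleotides, and these are shown because they mark which part of its transcript was assayed or targeted. All were placed on the longest coding FN1 transcript of GENCODE release 29 (GRCh38, 8905 bases, 46 exons), which is read from the minus strand of chromosome 2. The forward primer lies in exon 2 (chr2:215434713-215434733) and the reverse primer in exon 3 (chr2:215433394-215433414), and the shRNA targets lie in exon 34 (chr2:215379131-215379151), exon 2 (chr2:215434803-215434823) and exon 42 (chr2:215367963-215367983). Each matched 11 of the 13 coding FN1 transcripts and no transcript of another gene.
FN1 forward primer: AGGAAGCCGAGGTTTTAACTG
FN1 reverse primer: AGGACGCTCATAAGTGTCACC
FN1 shRNA 1 target: CGTGGTTGTATCAGGACTTAT
FN1 shRNA 2 target: CGGTTGTTATGACAATGGAAA
FN1 shRNA 3 target: CCCTACACAGTTTCCCATTAT
The primers enclose a product of 106 bases across the junction of both exons, in which the capitals mark the forward primer and the complement of the reverse primer.
FN1 primer product: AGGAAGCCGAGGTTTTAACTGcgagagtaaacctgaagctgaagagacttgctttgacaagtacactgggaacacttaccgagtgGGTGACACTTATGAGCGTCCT

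All of these sites are in the coding sequence, and none lies in the alternative exons 25, 33 and 40. As each site matched 11 of the 13 coding transcripts, some coding transcripts lack it. The primers and the shRNA targets need not match the same transcripts. Exon 25 (273 bases, the EDB domain) is kept by 3 of the 10 coding transcripts that span it, exon 33 (270 bases, the EDA domain) by 5 of 11, and exon 40 (467 bases, the variable region) by 4 of 11 with the same ends. An FPKM per gene adds up these isoforms, so that the isoform made in either line cannot be read from it.

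**Figure D1:**
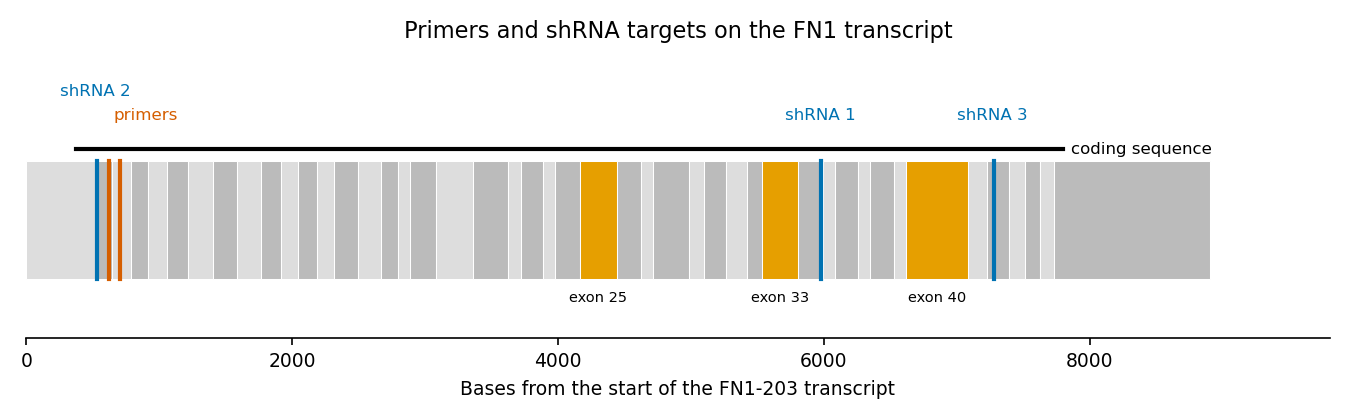
Map of the longest coding FN1 transcript, with bases from its start on the x axis, exons as grey boxes in alternating shades, the coding sequence as a black line, primers in red-orange and shRNA targets in blue. The alternative exons 25, 33 and 40 are in gold, and none of the 5 oligonucleotide sites falls in them.

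The promoters of FN1 and FBN1, which were higher in 231-BR cells by nearly the same factor, and of TNC and SPARC, which were lower, are shown so that genes of the same direction can be compared in sequence. Each runs over the 250 bases before the RefSeq start (GRCh38.p14, minus strand), at chr2:215436069-215436318 for FN1, chr15:48644971-48645220 for FBN1, chr9:115118158-115118407 for TNC and chr5:151686916-151687165 for SPARC. Capitals mark matches, on either strand and with overlaps counted, to TATAAA (a form of the TATA box), GGGCGG (the GC box bound by SP1), TGANTCA (AP-1), TGACGTCA (the cAMP response element) and GGAATG (TEAD factors). Variants of these motifs, such as the tataag in the FN1 and TNC sequences, were not searched and stay in lower case, so an unmarked promoter may still hold a TATA box.
FN1 promoter: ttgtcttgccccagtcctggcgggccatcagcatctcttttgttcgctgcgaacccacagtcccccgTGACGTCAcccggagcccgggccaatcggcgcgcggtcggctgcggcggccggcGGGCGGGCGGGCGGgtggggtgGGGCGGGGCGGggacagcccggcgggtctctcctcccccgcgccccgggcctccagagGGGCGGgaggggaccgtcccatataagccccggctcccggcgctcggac
FBN1 promoter: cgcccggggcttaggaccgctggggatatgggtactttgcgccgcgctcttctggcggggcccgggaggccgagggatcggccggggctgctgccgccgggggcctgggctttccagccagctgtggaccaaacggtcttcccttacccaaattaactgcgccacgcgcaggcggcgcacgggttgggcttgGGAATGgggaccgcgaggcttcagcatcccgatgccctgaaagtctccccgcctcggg
TNC promoter: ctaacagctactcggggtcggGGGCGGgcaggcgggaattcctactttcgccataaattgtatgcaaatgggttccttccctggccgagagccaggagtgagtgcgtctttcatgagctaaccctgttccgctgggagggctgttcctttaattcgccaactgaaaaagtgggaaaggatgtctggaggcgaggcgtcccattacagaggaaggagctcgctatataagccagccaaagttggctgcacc
SPARC promoter: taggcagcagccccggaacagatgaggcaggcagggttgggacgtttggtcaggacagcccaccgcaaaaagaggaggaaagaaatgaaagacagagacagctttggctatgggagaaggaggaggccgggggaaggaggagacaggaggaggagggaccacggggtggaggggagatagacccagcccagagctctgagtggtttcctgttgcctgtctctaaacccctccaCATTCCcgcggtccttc

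Among the 10 promoters, taken with 50 bases after the start, 6 held GGGCGG, against 45.0% of 35116 RefSeq promoters of the same length. FN1 held 6 copies and the only TGACGTCA of the 10 genes, 183 bases before its start, a motif found in 1.85% of all promoters. GGAATG was found in FBN1, SPARC, THBS1 and THBS2 (14.03% of all promoters), TATAAA in THBS2 and POSTN (11.5%), and TGANTCA in POSTN only among the 10 (7.71%). The number of CpG sites in the window went from 3 in POSTN to 38 in FN1, with a median of 14 over all promoters. For FBN1 and FBN2 the 50 bases after the RefSeq start were not found unbroken in any coding transcript of the gene in GENCODE release 29. Both windows also lie inside the span of the gene there, so they may not be the promoter in use. The windows of SPARC, FBLN1 and VCAN lie inside the spans of their genes too. Their 50 bases after the start were found in a coding transcript, but another start may be in use. In these windows FN1 and FBN1 shared none of the exact motifs searched, and neither did TNC and SPARC. As the FBN1 window may not be its promoter, it cannot tell whether the promoters of FN1 and FBN1 share motifs. The same limit holds for SPARC in its comparison with TNC, as another start of SPARC may be in use.

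In GENCODE release 29 (GRCh38) FN1 spans chr2:215360440-215436172 and the fibrillin genes FBN1 and FBN2 span chr15:48408306-48645849 and chr5:128257909-128659185, all on the minus strand. FBLN1 lies at chr22:45502238-45601135 on the plus strand. Of the matricellular genes, TNC (chr9:115019578-115118257), SPARC (chr5:151661096-151687165), THBS2 (chr6:169215780-169254044) and POSTN (chr13:37562583-37598844) lie on the minus strand and THBS1 (chr15:39581079-39599466) on the plus strand, and VCAN lies at chr5:83471465-83582303, also on the plus strand. The longest coding transcripts have 66 exons in FBN1 and 71 in FBN2, against 10 in SPARC. FBN1 and THBS1 share chromosome 15, and FBN2, SPARC and VCAN share chromosome 5, but none of the 10 genes overlaps another.

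Of the 10 genes, 4 had a mean of at least 1 FPKM in both lines, and these were THBS1, TNC, FN1 and FBN1. FN1 and FBN1 were higher in 231-BR cells, TNC was lower and THBS1 was at a similar level in both lines. The remaining 6 genes stayed under 1 FPKM in every library. The libraries of a line lay close together for the 4 expressed genes, with an SD of at most 2.83 FPKM for THBS1 and of at most 0.836 FPKM for the others.

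**Figure D2:**
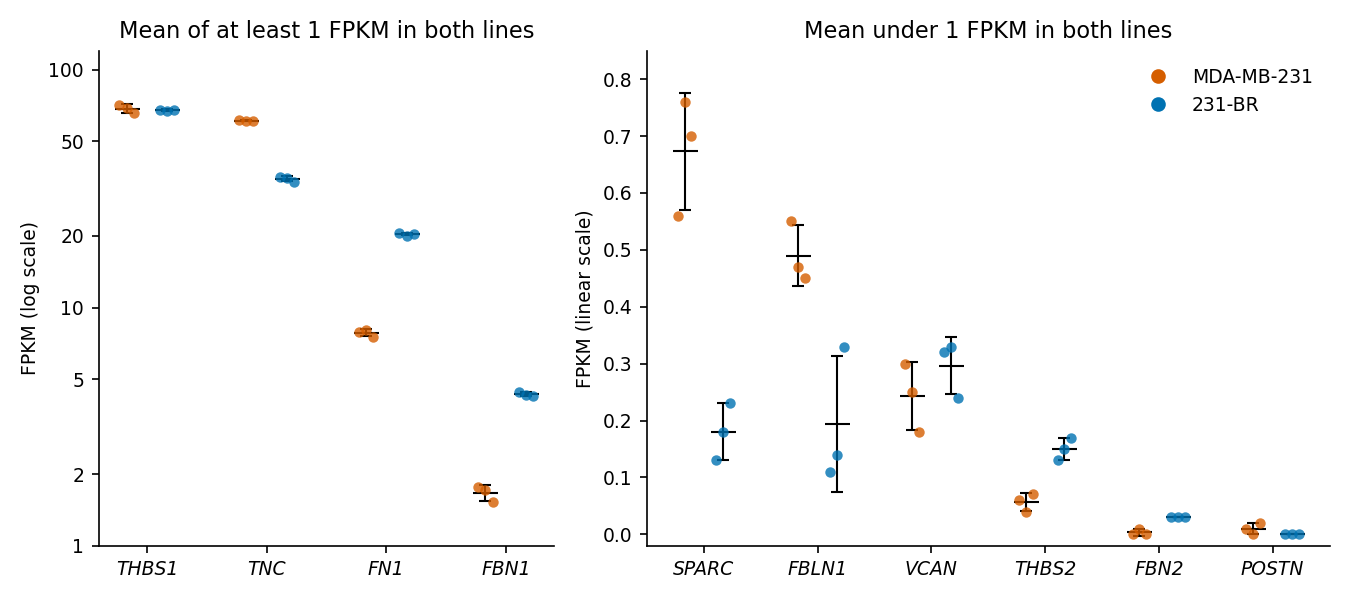
FPKM of the 10 genes in each of the 3 libraries of parental MDA-MB-231 cells (orange) and 231-BR cells (blue), with the mean and SD as black bars, on a log axis for the genes with a mean of at least 1 FPKM (left) and a linear axis for the others (right). FN1 and FBN1 sit higher in 231-BR cells, TNC, SPARC and FBLN1 sit lower, and the points of THBS1 and VCAN overlap.

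For the test, log2(FPKM + 0.1) was compared between the lines by limma in the 13465 genes whose mean over the 6 libraries was 0.1 FPKM or more, with Benjamini-Hochberg adjustment over all of them, and a positive fold change means a higher value in 231-BR cells. This scale draws the changes of genes with a low FPKM toward 0. The test covered 8 of the 10 genes, since FBN2 and POSTN had a mean under 0.1 FPKM. Of the 8, 6 had an adjusted p under 0.05, as did 77.3% of all genes tested. Higher in 231-BR cells were 3 of them (44.4% of all genes) and lower another 3 (32.9% of all genes). THBS2, among the 3 higher, had a mean of 0.057 FPKM in parental cells and passed the filter only through the 231-BR libraries. When any 231-BR library was left out THBS2 was not tested, and 2 genes were called higher. The study's criteria for DEGs ask for a log2 fold change beyond 1 in either direction and an FPKM of at least 1 besides the adjusted p, without saying in which samples, and the FPKM criterion was read here as a mean of 1 or more in both lines. They were met by 2 genes, FN1 and FBN1, both higher in 231-BR cells. Of all genes tested 6.45% met them, 4.68% with a higher and 1.77% with a lower value. For 6 of the 8 genes there was no overlap between the lines, and 78.4% of all genes tested had none either. The median log2 fold change was 0.10 over the 8 genes and 0.08 over all genes tested. The share called and the share without overlap lie near those of the whole table, so these counts are no result about the 10 genes as a group, and the DEG count rests on 2 genes.

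The share of calls that were higher in 231-BR cells depended on the scaling, with 57.4% for the FPKM as deposited and 45.6% after quantile normalization, and the median of all genes tested went from 0.08 to -0.06. The calls of FN1, FBN1, TNC, SPARC and FBLN1 held with their direction under both scalings tried, whereas THBS2 lost its call after quantile normalization. With 3 libraries a line, the smallest p of an exact 2-sided permutation test is 0.1, and this value was found for FN1, FBN1, FBN2, FBLN1, TNC, SPARC and THBS2.

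**Figure D3:**
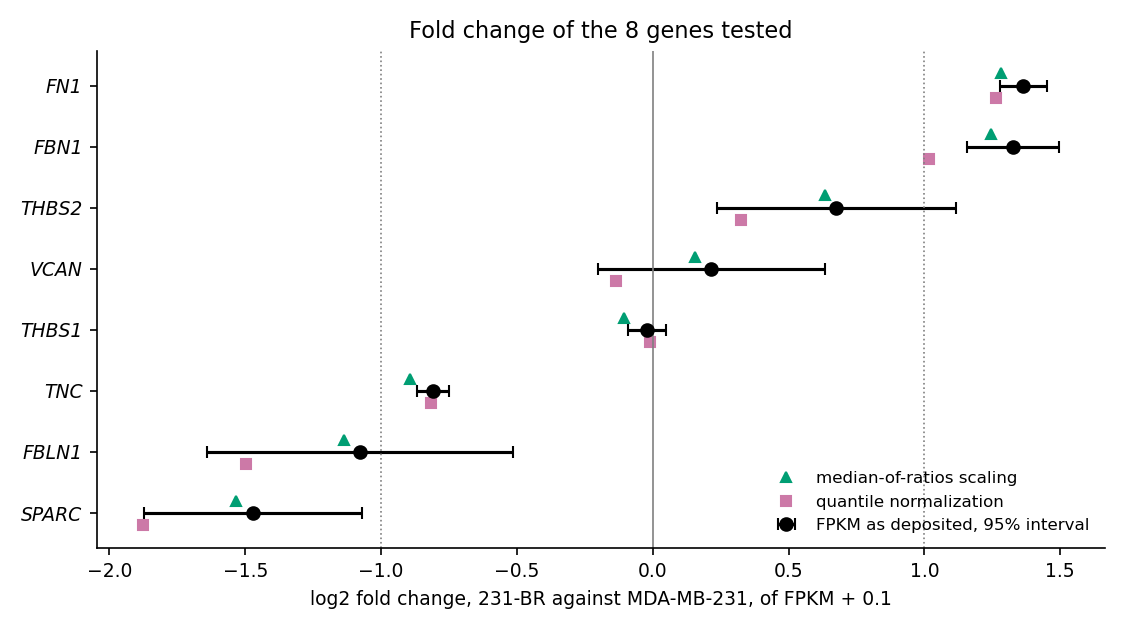
Log2 fold change of the 8 genes tested, 231-BR against parental cells, with the 95% interval of the limma fit on the FPKM as deposited (black), and the value after median-of-ratios scaling (green triangles) and quantile normalization (pink squares); dotted lines stand at a log2 fold change of 1 in either direction. FN1 and FBN1 lie beyond 1 under each of these scalings, and VCAN changes sign after quantile normalization.

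FN1, which encodes fibronectin, had 20.54, 20.09 and 20.34 FPKM in the 231-BR libraries and 7.91, 8.07 and 7.54 FPKM in the parental libraries. Every 231-BR library was above every parental library, and the gap between the lines was far wider than the spread within them. The means were 20.3 ± 0.225 and 7.84 ± 0.272 FPKM (SD, n = 3 each), a ratio of 2.59. The log2 fold change was 1.36 (standard error 0.039, 95% interval 1.28 to 1.45, adjusted p = 7.7e-10 from limma). As whole cultures were sequenced, more cells that express a gene and more RNA per cell cannot be told apart here. In the order of all genes of the table, FN1 lay above 59.7% of them in parental cells and above 76.6% in 231-BR cells. FN1 belongs to the hub genes that the study picked on these libraries, so its direction is not independent evidence. Among its 40 neighbours on chromosome 2 with a mean of at least 1 FPKM, 20 on either side, the median log2 fold change was 0.12. Over all genes with such a mean the median was 0.06.

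FBN1, the fibrillin that forms most microfibrils of adult tissue, had 4.42, 4.28 and 4.27 FPKM in the 231-BR libraries and 1.76, 1.72 and 1.52 FPKM in the parental libraries. There was no overlap between the lines. The means were 4.32 ± 0.084 and 1.67 ± 0.129 FPKM (SD, n = 3 each), and their ratio was 2.59, as for FN1. The log2 fold change was 1.33 (standard error 0.075, 95% interval 1.16 to 1.495, adjusted p = 9.4e-08). FN1 and FBN1 thus kept their proportion within a library, with 4.65 to 4.76 times as much FN1 as FBN1 in 231-BR cells and 4.49 to 4.96 times as much in parental cells by FPKM, and these ranges overlapped. FBN1 too was picked as a hub gene on these libraries. The median log2 fold change of its 40 neighbours on chromosome 15 was -0.14. With a pseudocount of 1 FPKM in place of 0.1 its log2 fold change was 0.998, just short of the fold criterion.

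FBN2, the fibrillin of embryonic microfibrils, was listed at 0.03 FPKM in each 231-BR library and at 0, 0.01 and 0 FPKM in the parental libraries. These values are a few of the smallest steps that the table can show, and FBN2 was left out of the test. With no filter on low values it had a log2 fold change of 0.33 with an adjusted p of 0.012 from limma, which made 7 of the 10 genes called, 4 of them higher. The log2 ratio of FBN1 to FBN2 was 5.09 ± 0.027 in 231-BR cells and 4.09 ± 0.107 in parental cells (SD, n = 3 each), a difference of 0.99 (exact 2-sided permutation p = 0.1, the smallest possible). This difference had the opposite sign, -0.29, with a pseudocount of 0.01 FPKM, so no direction is given for it.

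FBLN1, a fibulin that binds fibronectin and elastic fibres, had 0.11, 0.14 and 0.33 FPKM in the 231-BR libraries and 0.55, 0.47 and 0.45 FPKM in the parental libraries. The third 231-BR library was well above the other two but still under every parental library. The means were 0.193 ± 0.119 and 0.49 ± 0.053 FPKM (SD, n = 3 each). FBLN1 fell, with a log2 fold change of -1.08 (standard error 0.25, 95% interval -1.64 to -0.51, adjusted p = 0.0028). It was not a DEG by the study's criteria because of its low level. The median of its 40 neighbours on chromosome 22 was -0.23.

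TNC encodes tenascin-C, a large hexameric glycoprotein that weakens adhesion to fibronectin. It had 35.48, 34.99 and 33.85 FPKM in the 231-BR libraries and 61.37, 60.59 and 61.01 FPKM in the parental libraries, with no overlap. The means were 34.8 ± 0.836 and 61.0 ± 0.390 FPKM (SD, n = 3 each), so that the level was 1.75 times as high in parental cells. The log2 fold change was -0.81 (standard error 0.027, 95% interval -0.87 to -0.75, adjusted p = 2.2e-09), short of the fold criterion for DEGs. TNC and FN1 thus moved in opposite directions. Within a library TNC was 7.51 to 8.09 times as high as FN1 by FPKM in parental cells and 1.66 to 1.74 times as high in 231-BR cells. A ratio within a library is not changed when all its genes are scaled by a common factor, but quantile normalization can change it. The median of the 40 neighbours of TNC on chromosome 9 was -0.07.

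SPARC, also known as osteonectin, is a collagen-binding protein that acts on matrix assembly. Its level was 0.13, 0.18 and 0.23 FPKM in the 231-BR libraries and 0.56, 0.76 and 0.70 FPKM in the parental libraries. The lines did not overlap, and every library was under 1 FPKM. The means were 0.18 ± 0.050 and 0.673 ± 0.103 FPKM (SD, n = 3 each), 3.74 times as high in parental cells. SPARC fell, with a log2 fold change of -1.47 (standard error 0.18, 95% interval -1.87 to -1.07, adjusted p = 3.0e-05). The size of the change depends on the pseudocount at such levels, and with a pseudocount of 1 FPKM it was -0.50. The median of its 40 neighbours on chromosome 5 was -0.04.

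THBS1 encodes thrombospondin-1, which activates latent TGF-β and inhibits angiogenesis through CD36 and CD47. By FPKM it was the highest of the 10 genes in every library, with 67.91, 66.98 and 67.78 FPKM in 231-BR cells and 71.2, 69.09 and 65.59 FPKM in parental cells. The 231-BR libraries lay within the range of the parental libraries. The means were 67.6 ± 0.504 and 68.6 ± 2.83 FPKM (SD, n = 3 each). No difference passed the test, with a log2 fold change of -0.02 (95% interval -0.09 to 0.05, adjusted p = 0.54 from limma). After median-of-ratios scaling it was -0.10, with an adjusted p of 0.010. Without MDA-MB-231 replicate 1, the highest library, it was 0.0051. THBS1 lay above 93.0% of all genes in 231-BR cells and 93.1% in parental cells. FSIP1 overlaps THBS1 on the other strand, and it had 0.163 ± 0.065 and 0.243 ± 0.067 FPKM (SD, n = 3 each). The protocol does not mention strand marking, so that reads of both genes may not be separable, though FSIP1 was low beside THBS1. Genes annotated on the opposite strand overlap FBN2, TNC, SPARC, THBS2 and VCAN as well, and no values of these were used here.

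THBS2, the second thrombospondin of the trimeric type and likewise an inhibitor of angiogenesis, had 0.13, 0.15 and 0.17 FPKM in the 231-BR libraries and 0.06, 0.04 and 0.07 FPKM in the parental libraries. The lines did not overlap. The log2 fold change was 0.68 (standard error 0.20, 95% interval 0.24 to 1.12, adjusted p = 0.0097). Its mean over the 6 libraries, 0.103 FPKM, passed the filter only through the 231-BR libraries, and without any one of these it was not tested, which left 5 genes called. After quantile normalization the log2 fold change was 0.32 with an adjusted p of 0.16, and it was 0.12 with a pseudocount of 1 FPKM and 1.28 with 0.01 FPKM. The log2 ratio of THBS1 to THBS2 was 8.08 ± 0.118 in 231-BR cells and 8.78 ± 0.178 in parental cells (SD, n = 3 each; exact 2-sided permutation p = 0.1, the smallest possible). The difference of -0.70 was -0.14 with a pseudocount of 1 FPKM and -1.30 with 0.01 FPKM. THBS1 was thus the main thrombospondin of the pair in both lines.

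POSTN, which encodes periostin and in tumours is mostly a product of stromal fibroblasts, was listed at 0 FPKM in all 231-BR libraries and at 0.01, 0 and 0.02 FPKM in the parental libraries. It was not tested. Its nearest relative, TGFBI, encodes a secreted protein with the same fasciclin domains and had 0.89, 0.93 and 1.14 FPKM in the 231-BR libraries against 93.34, 95.44 and 95.01 FPKM in the parental libraries. The log2 fold change of TGFBI was -6.45 (standard error 0.075, adjusted p = 4.1e-12).

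VCAN encodes versican, a large chondroitin sulfate proteoglycan that binds hyaluronan. Its level was 0.32, 0.33 and 0.24 FPKM in the 231-BR libraries and 0.30, 0.25 and 0.18 FPKM in the parental libraries. The lines overlapped. The log2 fold change was 0.22 (95% interval -0.20 to 0.63, adjusted p = 0.31 from limma), an interval that leaves room for a change of up to 0.63 toward 231-BR cells. After quantile normalization the sign was the opposite, with -0.14.

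Within each line the order of the expressed genes was THBS1, TNC, FN1 and FBN1, and the libraries of neighbours in this order did not overlap. Under 1 FPKM the order differed between the lines. In parental cells SPARC (0.56 to 0.76 FPKM) came before FBLN1 (0.45 to 0.55 FPKM), and VCAN (0.18 to 0.30 FPKM) and THBS2 (0.04 to 0.07 FPKM) followed. In 231-BR cells the order was VCAN (0.24 to 0.33 FPKM), FBLN1 (0.11 to 0.33 FPKM), SPARC (0.13 to 0.23 FPKM) and THBS2 (0.13 to 0.17 FPKM). Neighbours in that order overlapped, so they did not differ beyond their spread. SPARC and VCAN overlapped in neither line, with SPARC the higher in parental cells and VCAN the higher in 231-BR cells.

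The summed FPKM of the 10 genes was 127.17 to 129.07 in the 231-BR libraries and 137.08 to 143.72 in the parental libraries. FN1 made up 15.8% to 15.99% of it in 231-BR cells and 5.50% to 5.72% in parental cells. TNC made up 26.6% to 27.5% in 231-BR cells and 42.7% to 44.5% in parental cells. The share of THBS1 was 52.6% to 53.3% against 47.8% to 49.5%, and that of FBN1 3.36% to 3.42% against 1.11% to 1.22%. The 6 genes of low level together gave 0.558% to 0.786% in 231-BR cells and 1.03% to 1.09% in parental cells. By FPKM, fibronectin thus took a larger and tenascin-C a smaller share of these mRNAs in 231-BR cells than in parental cells.

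**Figure D4:**
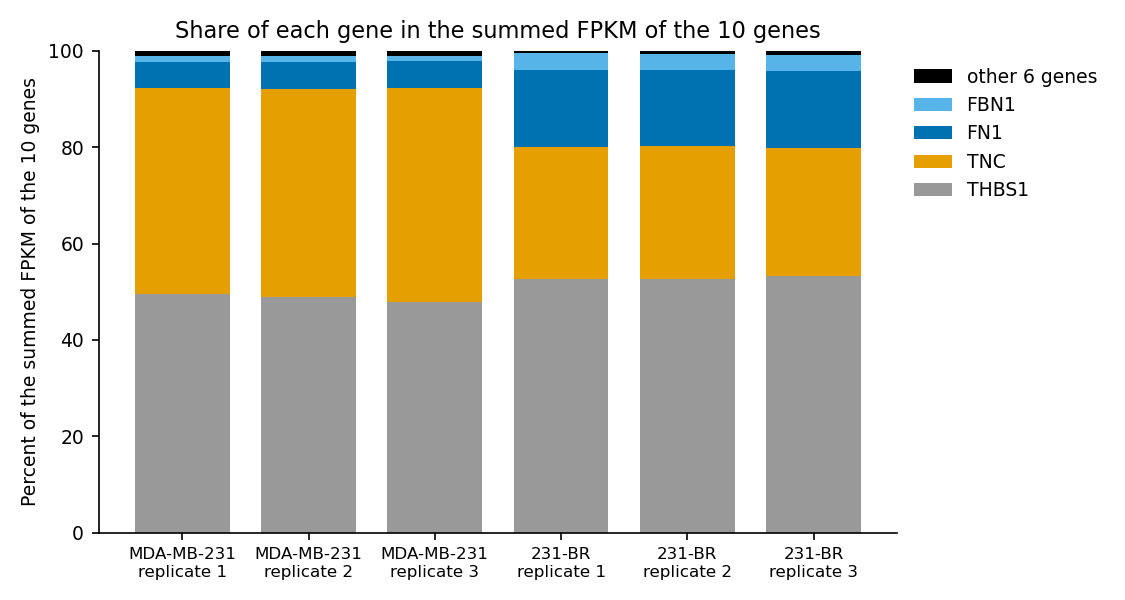
Share of each gene in the summed FPKM of the 10 genes, in percent, as 1 stacked bar for each of the 6 libraries. FN1 (dark blue) takes 15.8% to 15.99% in the 231-BR libraries and 5.50% to 5.72% in the parental libraries, and TNC (gold) takes 26.6% to 27.5% and 42.7% to 44.5%.

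Genes that belong to the same families or act with the 10 proteins were listed by symbol in 5 groups, 3 genes standing in a pair of them, and the counts below are to be read against the 77.3% of all genes tested that were called, 44.4% higher and 32.9% lower. Some called genes had a mean under 0.1 FPKM in the line where they were lower, and passed the filter only through the other line. These were SPOCK3, SPP1, ITGB8 and CEMIP through 231-BR cells, and BCAN and MFAP4 through parental cells. In the family relatives, 13 of 24 genes were tested, 9 of them (69.2%) were called, 6 higher and 3 lower in 231-BR cells, and the counts were 5 and 5 after quantile normalization. Increases included the testican SPOCK1 (2.53 ± 0.139 against 0.20 ± 0.035 FPKM, SD, n = 3 each) and the fibulins FBLN5 and EFEMP1, with log2 fold changes of 3.14, 1.502 and 1.31. The fibulin EFEMP2 and TGFBI had the largest decreases, with -2.67 and -6.45. The fibulins called were thus divided, with FBLN5 and EFEMP1 higher and FBLN1 and EFEMP2 lower in 231-BR cells, and these directions held under both scalings. Those lower were at a low level, with EFEMP2 at 0.147 against 1.41 FPKM and FBLN1 under 1 FPKM in every library. FBLN7 was not called (0.377 against 0.403 FPKM), and FBLN2 was not tested.

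In the list of other matricellular proteins 10 of 19 were tested and 9 (90%) called, with 6 higher and 3 lower. The list is wider than the definition given above and also holds structural matrix proteins such as agrin and the matrilins. SPP1, among the 6 higher, had 0.18, 0.3 and 0.08 FPKM in the 231-BR libraries and 0, 0.1 and 0 FPKM in the parental libraries. These values overlapped, and SPP1 lost its call after quantile normalization. CCN3, a member of the CCN family, had 26.8 ± 0.087 FPKM against 2.79 ± 0.233 FPKM in parental cells (SD, n = 3 each). CCN1 and CCN2 of that family, with means of 488 against 408 and 231 against 162 FPKM, were higher by 0.26 and 0.51 on the log2 scale. MATN2, a matrilin, and IGFBP7, a binding protein of insulin-like growth factors, were higher by 2.02 and 1.49. The decreases in this list were led by the proteoglycan agrin (AGRN, log2 fold change -1.45), followed by ECM1 (-0.77) and the peroxidase PXDN (-0.75).

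Of the partners of microfibrils and elastic fibres, which FBN1 builds on, 21 of 26 were tested and 18 (85.7%) called, 9 higher and 9 lower, with a median log2 fold change of -0.02. The crosslinking enzymes were divided. LOXL1, LOXL4 and LOX were higher, with LOX at 13.1 ± 0.261 against 4.15 ± 0.219 FPKM (SD, n = 3 each), as was LOXL3, whereas LOXL2, which had the highest FPKM of the family in both lines, was lower, with means of 56.1 against 93.1 FPKM and a log2 fold change of -0.73 (adjusted p = 3.7e-09). The latent TGF-β binding proteins LTBP2 and LTBP3 and the fibulin EFEMP2 were lower, with LTBP2 at 0.58 ± 0.026 against 9.76 ± 0.344 FPKM (SD, n = 3 each). LTBP4, which had the highest FPKM of that family in both lines, was higher, with means of 15.2 against 12.5 FPKM. Its log2 fold change was 0.28 (adjusted p = 2.3e-04 from limma). LTBP1 was not called, with a log2 fold change of -0.11. ELN, the gene of elastin itself, had at most 0.0033 FPKM as the mean of a line.

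The cell surface receptors of these proteins numbered 19, of which 13 were tested and 12 (92.3%) called, 5 higher and 7 lower. The fibronectin-binding integrin subunit ITGB1 had 246 ± 2.98 FPKM against 479 ± 16.2 FPKM in parental cells (SD, n = 3 each), and ITGAV and the proteoglycan SDC4 were lower too, with log2 fold changes of -1.25 and -1.11. Higher were LRP1, the endocytic receptor of thrombospondins, and the syndecans SDC2 and SDC3, with 2.203, 2.15 and 1.45.

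Hyaluronan and versican partners stood at 10 tested of 17, with 8 (80%) called, 7 higher and 1 lower, and a median log2 fold change of 0.93. The hyaluronan synthase HAS2 (4.71 ± 0.387 against 0.167 ± 0.038 FPKM), the hyaluronan-degrading CEMIP (4.05 ± 0.087 against 0.09 ± 0.026 FPKM) and the versican-cleaving protease ADAMTS1 (30.5 ± 0.609 against 6.13 ± 0.255 FPKM, SD, n = 3 each) were higher in 231-BR cells, whereas the hyaluronan receptor HMMR was lower, with -0.43. VCAN itself stayed low in both lines.

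**Figure D5:**
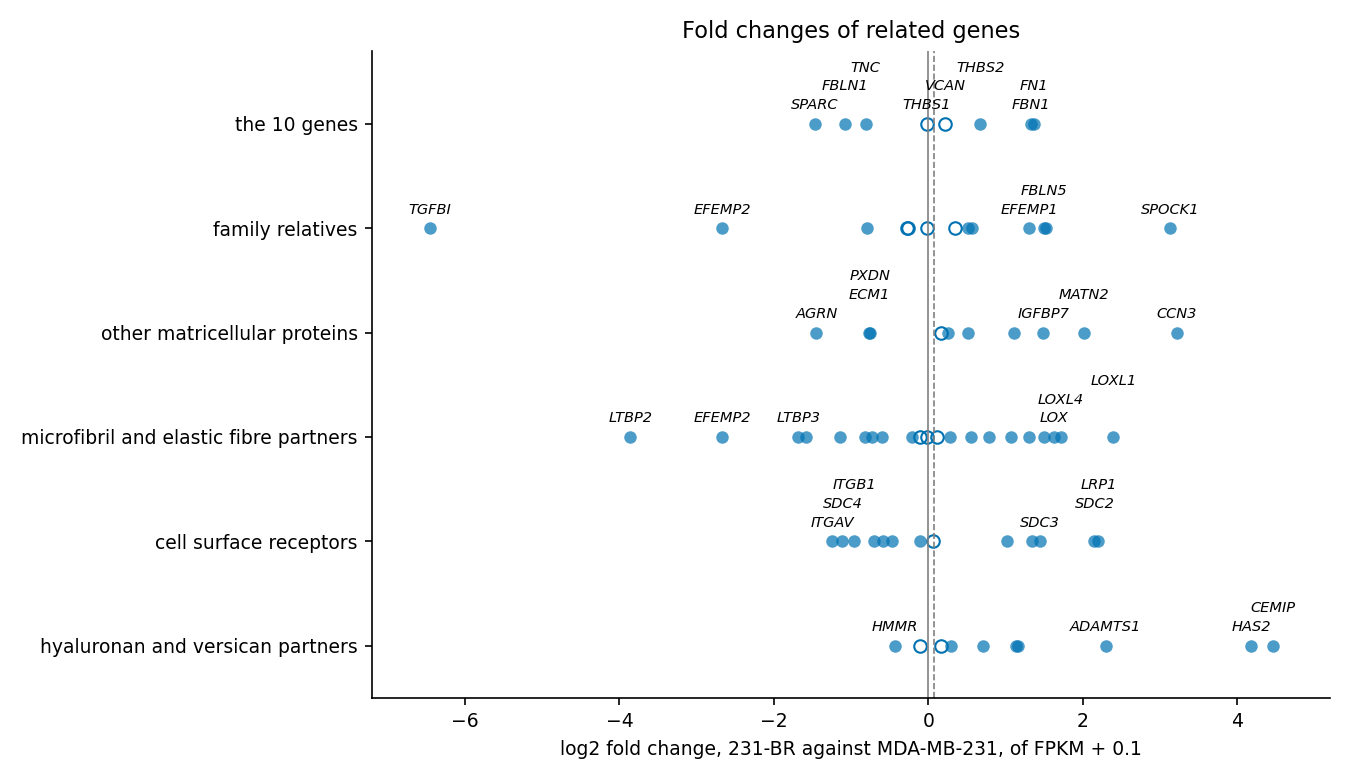
Log2 fold change, 231-BR against parental cells, of each tested gene among the 10 genes and the 5 groups of related genes. Filled points had an adjusted p under 0.05, open points did not, and the dashed line is the median of all genes tested, 0.08, with TGFBI at -6.45 and CEMIP at 4.46 as the extremes.

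The identity of the cells was checked against markers. Both lines had the keratins KRT8 and KRT18, vimentin, EPCAM, EGFR and ERBB2 at a mean of over 1 FPKM, whereas E-cadherin (CDH1), PGR and PTPRC were at most 0.060 FPKM and ESR1 was at 0.927 and 0.79 FPKM. Of 10 fibroblast markers 8 were in the table and none reached 1 FPKM, with a summed level of 0.81 to 0.88 FPKM in 231-BR and 0.96 to 1.03 FPKM in parental libraries. COL1A2, COL3A1, LUM, FAP and THY1 were at a mean of at most 0.013 FPKM in either line and PDGFRB at most at 0.050 FPKM. COL1A1 had 0.517 FPKM in 231-BR and 0.93 FPKM in parental cells, and PDGFRA had 0.25 FPKM in 231-BR cells and was listed at 0 in the parental libraries. The part of other cells in the levels of the 10 genes was not tested. Of 8 brain cell markers 7 were in the table, and their sum, 21.01 to 21.43 against 13.23 to 14.48 FPKM, came almost wholly from MBP, while GFAP had at most 0.043 FPKM. The summed FPKM of all genes was 465020 to 472007 in 231-BR libraries and 486937 to 496420 in parental libraries, and 11166 to 11178 against 10785 to 10806 genes reached 1 FPKM. The part of these differences between libraries in the fold changes was not tested.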

How the data were processed

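From either line, 231-BR and its parent MDA-MB-231, the authors sequenced 3 poly(A) libraries with paired reads. After filtering, reads were aligned to the genome with HISAT2 2.0.4 and to a gene set with Bowtie2 2.2.5 (GRCh38 patch release p12, per the submitters' processing notes), and the authors deposited FPKM values per gene, rounded to 2 decimals. The program that computed the FPKM is not given in the sources used here. The study used a test on counts. Counts were not analysed here, so a test on the log scale was used.

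Libraries were grouped by their titles, since in the labels' cell line field the number in the name goes up with the replicate. The design text calls the samples of a line independent but names no separate cultures, so p-values measure the spread between these libraries, which may be technical. The 13465 genes whose mean was 0.1 FPKM or more were fitted on the scale of log2(FPKM + 0.1) in R 4.3.3 by limma 3.58.1 (lmFit, eBayes with a mean-variance trend, Benjamini-Hochberg adjustment). The fit was also run on simulated data drawn with independent noise, which checks the code and cannot tell whether the spread of these libraries is technical. Sequences were matched to GENCODE release 29 (GRCh38), and promoters came from RefSeq (GRCh38.p14), where all 10 genes matched. Python 3.11.15, pandas 2.3.3, scipy 1.17.1 and matplotlib 3.10.9 were used.

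The genes and lists were chosen with earlier results of these data known. Besides the 10 genes, the text names in each list the 3 largest increases and 3 largest decreases with an adjusted p under 0.05 and a mean of at least 1 FPKM in either line, and markers. Genes named outside this rule (ELN, LOXL2, LOXL3, LTBP1, LTBP4, FSIP1, SPOCK3, BCAN, FBLN2, FBLN7, CCN1, CCN2, SPP1, MFAP4, ITGB8 and markers under 1 FPKM) were chosen after their values were seen. The alternatives were pseudocounts of 1 and 0.01, no filter and a filter at a mean of 1 FPKM, quantile normalization, median-of-ratios scaling, a fit with no trend, a replicate block, leaving out each library, a mean of 1 FPKM or more in either line, and a log2 fold change beyond 1.5. Protein sequences, RT-PCR and knockdown were not analysed here.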

Additional observations from a re-analysis of the deposited data

How the results depend on the processing

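FN1, FBN1 and TNC kept their direction and their adjusted p under 0.05 in all 14 alternatives to the fit, with log2 fold changes of 1.26 to 1.38, 0.998 to 1.37 and -0.89 to -0.79. SPARC (-1.88 to -0.50) and FBLN1 (-1.50 to -0.32) did so in the 13 that tested them, and THBS2 (0.12 to 1.28) was tested in 10. FBN2 was tested with no filter only, which called 7 of the 10 genes. A filter at a mean of 1 FPKM tests fewer genes and left 3 of the 10 genes called, 1 of them lower. It also left 5 family relatives (1 lower), 5 lower microfibril partners and 3 higher receptors. With a pseudocount of 1, FN1 alone (1 gene) met the DEG criteria, and with a log2 fold change beyond 1.5 asked for, 0 did, although limma called 6 and both FN1 and FBN1 were past 1. Quantile normalization gave 5 lower family relatives and, like median-of-ratios scaling, 2 lower hyaluronan partners. It took THBS2 to 0.32 (adjusted p = 0.16) and VCAN to -0.14. THBS1 ranged from -0.10, with median-of-ratios scaling, to 0.0051, without MDA-MB-231 replicate 1, and from -0.054 to 0.0051 over the fits that left out a library. The log2 ratio of FBN1 to FBN2 differed by -0.29 with a pseudocount of 0.01. With each library left out in turn, 5 to 6 of the 10 genes were called, 2 met the DEG criteria, and 1 to 2 hyaluronan partners were lower, 2 without MDA-MB-231 replicate 1. The cause of these shifts was not tested beyond the smaller number of genes under the filter.

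Libraries with the same replicate number did not deviate together, with correlations of -0.027 to 0.015. These values cannot tell whether libraries of the same number were handled together. A replicate block called 10502 genes against 10406, and 6 of the 10 genes with 2 past the DEG criteria, and it changed no call of a named member. FPKM with 2 decimals limits values near 0.01, and without counts no counting error can be given.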
